A study of Homo sapiens with 90 samples.

Results

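KRT6A, KRT7, KRT8, KRT16, KRT17, KRT18, KRT19, KRT23, KRT80 and KRT81 are 10 keratin genes of the 28307 genes counted in HepaRG cells, a human hepatoma line that grows as a bipotent progenitor and can mature towards hepatocytes and bile duct cells. The 10 were taken by symbol, as keratins listed around KRT6A, and KRT6A was selected on its measured level in thawed cells, which was far higher at day 32 without DMSO than at day 30. That contrast is therefore given only as a description, with no test, and so is each other KRT6A contrast that rests on the same thawed libraries at day 30 or day 32. The other 9 keratins were chosen with earlier results of these data known.

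Bulk RNA was counted by BRB-seq, a barcoded method that reads transcripts near their 3′ end, in 90 libraries of 30 groups with 3 libraries each. The groups cross 15 conditions with 2 genotypes, parental HepaRG (wt) and a line stably transduced with a lentivirus that expresses CYP2D6, a drug-metabolising cytochrome P450. Progenitor cells were taken at days 0, 2, 4, 7 and 14 without DMSO, the solvent used to differentiate this line. FreshDifferentiated and Thawed cells, called fresh and thawed here, cover day 30 and day 32 labelled noDMSO, and day 32, day 37 and day 44 labelled withDMSO. The noDMSO label does not tell whether these cells had been in DMSO up to day 30. An effect of leaving DMSO between day 30 and day 32 was not tested and cannot be told apart from other changes between those days. The labels describe growth in William's E medium followed by DMSO differentiation in the same words for every library, progenitors included. They do not say how cells were frozen or plated, whether the transduced line is 1 clone, or whether the libraries a, b and c of a group came from separate cultures, so p-values measure the spread between these libraries, which may be technical.

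Keratins form the intermediate filaments of epithelial cells, built from pairs of a type I and a type II chain. Hepatocytes rely on the pair KRT8 (type II) and KRT18 (type I), while bile duct cells and liver progenitors add KRT7 (type II) and KRT19 (type I). KRT6A (type II) and its partners KRT16 and KRT17 (type I) are best known from skin, where wounding and stress induce them. In the members' positions (RefSeq, GRCh38.p14), 6 lie on chromosome 12 and 4 on chromosome 17. KRT6A spans chr12:52487176-52493257, and KRT8 and KRT18 are neighbours whose annotated spans share 1006 bases.

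KRT6A has near-identical copies, KRT6B and KRT6C, and the way reads were assigned between them is not given in the sources used here. The ends of the 3 coding sequences are shown because they are almost the same letters. The KRT6A stretch starts upstream of the last 500 bases of its transcript, which are given separately below. Each line gives the last 60 coding bases, stop codon included, read 5′ to 3′ on the minus strand of GRCh38 from the GENCODE 29 transcript, and capitals mark the positions at which the 3 genes are not all alike. KRT6A is at chr12:52487720-52487779, KRT6B at chr12:52447190-52447249 and KRT6C at chr12:52469062-52469121.
KRT6A: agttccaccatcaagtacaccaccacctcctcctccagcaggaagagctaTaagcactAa
KRT6B: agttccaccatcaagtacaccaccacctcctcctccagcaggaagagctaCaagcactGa
KRT6C: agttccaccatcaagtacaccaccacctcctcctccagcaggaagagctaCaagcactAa
KRT6B differs from KRT6A at 2 and KRT6C at 1 of these positions. Over the whole coding sequence of 1695 bases they differ at 43 and 35 positions, an identity of 97.5% and 97.9%. Of all 50-base windows of the KRT6A transcript, 39.1% occur in another gene, mostly KRT6C or KRT6B, but 0 of the 451 windows in its last 500 bases do. For KRT81 the shares were 44.6% (mostly KRT86) and 0%, for KRT18 28.9% and 9.09% (mostly pseudogenes), for KRT16 22% and 15.7%, for KRT17 16% and 4.21%, and for KRT7, KRT8, KRT19, KRT23 and KRT80 at most 2.22% in either part. No library exceeded 2.58 CPM (counts scaled to library size) of KRT6B or 3.73 CPM of KRT6C.

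Totals of the 87 libraries used lay between 723391 and 3882866 counts (median 1935150), and 3 nearly empty parental libraries (progenitor day 2, progenitor day 14 and fresh day 30, each replicate c) were left out, so those groups hold 2 libraries. Hepatocyte genes were present in every library: the summed level of 21 hepatocyte markers ranged from 3806 to 168500 CPM and was lowest in progenitors at days 2 and 4. Of 30 keratinocyte and squamous markers all had a count in some library, and their sum stayed between 57.5 and 143 CPM, of which KRT10 alone reached a mean of 82.1 CPM. EPCAM was listed at 0 in every library. Unless said otherwise, a fold change and its edgeR adjusted p come from edgeR's quasi-likelihood test over 12532 genes with Benjamini-Hochberg adjustment, a gene is called at an adjusted p under 0.05, and both genotypes weigh equally.

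Of the 10 keratins, 6 had enough counts to be tested: KRT6A, KRT7, KRT8, KRT17, KRT18 and KRT19. KRT8, KRT18 and KRT19 together took between 96.08% and 99.93% of the keratin counts in every library, and the 10 genes together took between 0.07175% and 0.2472% of a library. KRT6A made up at most 3.399% of the 10 genes' counts. These are shares of counts near the 3′ end and not of molecules per length.

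KRT6A, the type II wound keratin, was highest at day 32 without DMSO. In fresh cells at that time it stood at 12.5, 11.2 and 13.7 CPM in the parental libraries and at 33.8, 31.8 and 35.6 CPM in the transduced ones. At fresh day 30 it was at 0 and 1.23 CPM in the 2 parental libraries and at 6.09, 0 and 0.402 CPM in the transduced ones. Every library at day 32 without DMSO was above every library at day 30, and a single day 30 library, transduced replicate a, held 15 of the 18 counts of that condition. KRT6A rose 15.04-fold (log2 change 3.91 ± 0.49 SE, edgeR adjusted p = 3.32e-10) from fresh day 30 to day 32 without DMSO. The log2 change was 5.13 without replicate a and 5.52 without b. Each of these fits leaves 1 parental day 30 library, and without b that library has no KRT6A count. With KRT6B and KRT6C summed in, the log2 change was 3.46 and was called. KRT6A was the 1 of 6 tested keratins called in this comparison, in which 9.53% of all genes were called higher and 7.81% lower.

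With DMSO the level at fresh day 32 was at 0, 3.37 and 2.15 CPM in the parental libraries and at 3.09, 5.61 and 0 CPM in the transduced ones. All 6 lay below all 6 libraries without DMSO of the same day. KRT6A was 7.92-fold lower with DMSO (log2 change -2.99 ± 0.41 SE, edgeR adjusted p = 2.73e-08), and without replicate b the log2 change was -3.74, also called. In this comparison 2 of 6 keratins, KRT6A and KRT18, were called lower and none higher, where 0.479% of all genes were called higher and 1.97% lower. In bulk RNA, fewer cells that make a transcript and less of it per cell cannot be told apart.

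In thawed cells, the values that selected the gene were these. At day 30 KRT6A was at 0.728, 0.545 and 0.631 CPM in the parental libraries, 1 count each, and had no count in the 3 transduced ones. At day 32 without DMSO it was at 24.5, 18.9 and 15.9 CPM in the parental libraries and at 32.7, 35.7 and 44.6 CPM in the transduced ones. With DMSO at the same day it was at 0.541, 0.627 and 3.98 CPM in the parental libraries and at 2.58, 6.36 and 2.38 CPM in the transduced ones. The libraries without DMSO at day 32 were thus above all others of the thawed cells. Pooled counts at day 32 without DMSO against day 30 were 125 against 3 in parental cells, a depth-adjusted ratio of 32.2 (exact 95% interval 10.8 to 158), and 199 against 0 in transduced cells, at least 68.9-fold higher if the empty group is set to a floor of 3 counts. In fresh cells the same ratio was 15.5 (4.175 to 129.8) in parental and 15.96 (9.57 to 28.51) in transduced cells. Over both genotypes it was 11.9 (7.41 to 20.4) in fresh and 96.74 (32.81 to 471.5) in thawed cells. Pooling weighs genotypes by depth, and parental fresh day 30 had only libraries a and b (totals 809061 and 1600972). The fresh day 30 pool is thus mostly transduced cells, which held more KRT6A, and the pooled fresh ratio lies below both genotype ratios. With genotypes weighed equally, the edgeR fold changes were 15.04 in fresh and 128.4 in thawed cells, the latter resting on a group with no count. These intervals and floors cover counting error only and are no test of the conditions, and the difference between fresh and thawed cells was not tested because the thawed values chose the gene. With DMSO and both genotypes pooled, 20 counts at fresh day 32 stood against 18 at day 30, a ratio of 1.47 (0.74 to 2.95), and 30 against 3 in thawed cells, a ratio of 9.56 (2.97 to 49). By genotype the fresh ratios were again both above the pooled one, at 2.488 (0.4965 to 24.05) in parental and 1.573 (0.6791 to 3.543) in transduced cells. In thawed cells the parental ratio was 2.931 (0.7548 to 16.58). Transduced thawed cells had 20 counts against 0, at least 6.894-fold higher at the same floor.

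**Figure D1:**
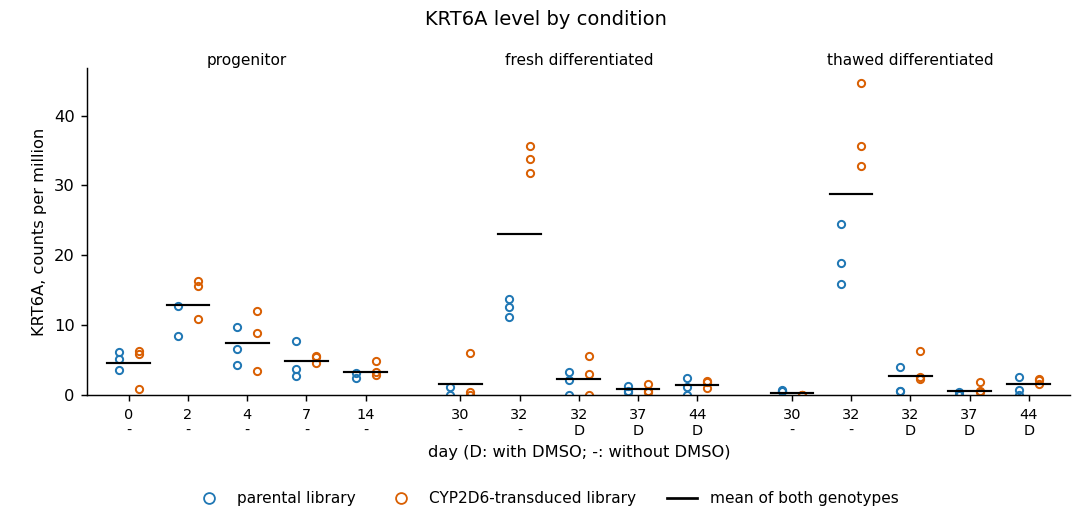
KRT6A level (CPM, linear axis) in each of 87 libraries by day and DMSO for progenitor, fresh and thawed cells; circles are libraries, coloured by genotype, and bars the mean of both genotypes. The libraries at day 32 without DMSO lie between 11.2 and 44.6 CPM, with the transduced above the parental ones, while no fresh or thawed library of another condition passes 6.36 CPM.

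After day 32 with DMSO, KRT6A stayed low. The highest library was at 1.62 CPM at fresh day 37, 2.46 CPM at fresh day 44, and in thawed cells 1.95 and 2.67 CPM at those times. In fresh cells the log2 change from day 32 to day 44 with DMSO was -0.80 ± 0.60 SE (edgeR adjusted p = 0.466), and thawed and fresh cells at day 44 differed by 0.08 (edgeR adjusted p = 0.99), so neither passed the test.

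In progenitors KRT6A was highest at day 2. Over both genotypes the 6 libraries of day 0 ran from 0.917 to 6.34 CPM (median 5.51), and the 5 libraries of day 2 from 8.53 to 16.3 CPM (median 12.8), without overlap. The means then were 7.49 ± 3.31 CPM at day 4, 4.96 ± 1.71 CPM at day 7 (both SD, n = 6) and 3.32 ± 0.92 CPM at day 14 (SD, n = 5). KRT6A rose 2.48-fold from day 0 to day 2 (log2 change 1.31 ± 0.38 SE, edgeR adjusted p = 0.00435) and fell by 1.97 ± 0.41 on the log2 scale from day 2 to day 14 (edgeR adjusted p = 3.39e-05). The first of these calls was lost when replicate b of every group was left out (edgeR adjusted p = 0.116). Ordered by mean level, thawed and then fresh day 32 without DMSO came first (28.7 and 23.1 CPM), followed by progenitor days 2 and 4, and thawed day 30 came last (0.317 CPM). No pair of neighbours in that order was free of overlap between libraries.

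The transduced libraries held more KRT6A than the parental ones at day 32 without DMSO. In fresh cells the means were 33.7 ± 1.90 against 12.5 ± 1.24 CPM, and in thawed cells 37.7 ± 6.19 against 19.8 ± 4.34 CPM (SD, n = 3 each), without overlap in either. This comparison was added after the values had been seen. The log2 differences were 1.43 ± 0.42 SE in fresh cells (2.69-fold, edgeR adjusted p = 0.856, so not called) and 0.92 in thawed cells (1.89-fold, given without a test). An exact permutation test of 3 against 3 libraries cannot go below p = 0.1. In each of these comparisons 0% of all genes were called, with 503 genes in fresh and 823 in thawed cells at an unadjusted p under 0.05, and DESeq2 called 0 in both. Fitting only the 6 fresh libraries compared gave an edgeR adjusted p of 0.00921 for KRT6A. The comparison was picked from the KRT6A values of these same libraries, so neither p is an independent test of it.

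Averaged over the 5 conditions of each cell state, no tested member passed the same test between genotypes. For KRT6A the log2 differences, transduced minus parental, were 0.22 ± 0.25 in progenitors and 0.81 ± 0.41 in fresh cells (SE, edgeR adjusted p = 0.792 and 0.353). The second ranged from 0.16 to 1.77 when a replicate letter was left out. In thawed cells it was 0.25, given without a test, and depends on the group with no count. Of 6 keratins in progenitors and fresh cells and 5 in thawed cells (KRT6A left out), 0 were called by edgeR or DESeq2, with 0, 1 and 3 at an unadjusted p under 0.05. Among all genes 1.26% were called higher and 0.311% lower in progenitors, 1.88% and 1.9% in fresh cells, and 1.1% and 1.55% in thawed cells. The genotype difference of the change from day 30 to day 32 without DMSO was called for 0 of 6 keratins in fresh and 0 of 5 in thawed cells, KRT6A left out of the latter (0 and 0 at an unadjusted p under 0.05, 0 by DESeq2), where 0.016% and 0% of all genes were called. The thawed comparison had 1147 genes at an unadjusted p under 0.05 and 0 calls by DESeq2. In fresh cells the KRT6A difference was 0.08 on the log2 scale (edgeR adjusted p = 1).

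KRT17, a type I partner of KRT6A, did not pass the test in any comparison. Its means ran from 0.555 CPM at thawed day 37 to 7.64 CPM at progenitor day 2, where the libraries were at 7.82 and 3.20 CPM (parental) and 5.71, 11.9 and 9.55 CPM (transduced). At progenitor day 14 they were at 1.95 and 2.79 CPM (parental) and 3.72, 5.24 and 1.39 CPM (transduced), which overlaps day 2. That difference of -1.25 ± 0.53 SE on the log2 scale missed the threshold (edgeR adjusted p = 0.0546), while DESeq2 (adjusted p = 0.0458) and edgeR with RLE scaling (0.0498), with all 90 libraries (0.0453) or with only the compared libraries (0.0201) put it past it. At fresh day 32 without DMSO against day 30, where KRT6A rose, the KRT17 difference was 1.03 ± 0.64 SE (edgeR adjusted p = 0.296).

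KRT16, the other type I partner, had 87 counts in all, spread over 36 of 87 libraries, and was not tested. Its highest condition mean was 1.29 CPM at thawed day 32 with DMSO, where 12 of 14 counts came from the transduced libraries. At day 32 without DMSO, where KRT6A was highest, KRT16 had 3 counts in fresh and 11 in thawed cells.

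**Figure D2:**
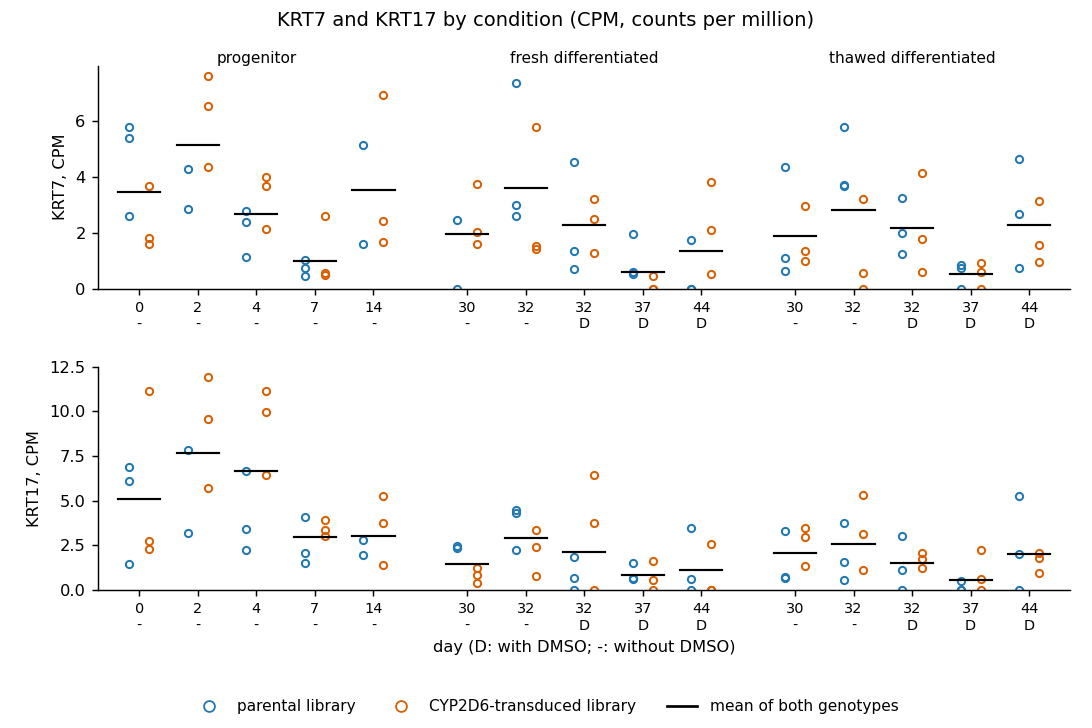
KRT7 and KRT17 levels (CPM, linear axes from 0) by day and DMSO, one circle per library coloured by genotype, bars the mean of both genotypes. All libraries lie below 12 CPM and libraries of most conditions overlap, with the highest means at progenitor day 2 for both genes.

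KRT8, the type II keratin of hepatocytes, was highest at progenitor day 2, at 820 and 840 CPM in the parental and 904, 937 and 910 CPM in the transduced libraries. At day 0 the libraries were more spread, at 940, 521 and 760 CPM (parental) and 692, 784 and 490 CPM (transduced), and overlapped those of day 2. KRT8 rose from day 0 to day 2 by 0.32 ± 0.12 SE on the log2 scale (edgeR adjusted p = 0.0282), a call that was lost without replicate b or c (edgeR adjusted p = 0.091 and 0.159). It fell by 0.95 ± 0.13 from day 2 to day 14 (edgeR adjusted p = 5.87e-10), where the 5 libraries ran from 366 to 573 CPM, all below day 2. In fresh and thawed cells the condition means stayed between 315 and 469 CPM, and KRT8 passed the test in no comparison among them. With DMSO at fresh day 32 its log2 difference was -0.35 ± 0.11 SE (edgeR adjusted p = 0.0754), and it was called there without replicate b (edgeR adjusted p = 0.0468).

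KRT18, the type I partner of KRT8, moved differently. At progenitor day 0 its libraries were at 1041, 686 and 950 CPM (parental) and 897, 981 and 592 CPM (transduced), and at day 2 at 610 and 583 CPM (parental) and 720, 771 and 628 CPM (transduced). It fell by 0.40 ± 0.11 on the log2 scale from day 0 to day 2 (edgeR adjusted p = 0.00133), while KRT8 rose. This call was lost without replicate a (edgeR adjusted p = 0.136). From day 2 to day 14 its difference was -0.05 ± 0.11 SE (edgeR adjusted p = 0.769), although the mean at day 4, 465 ± 129 CPM (SD, n = 6), was below both.

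KRT18 was lower with DMSO at day 32 in both cell states. Without DMSO the fresh libraries were at 460, 548 and 473 CPM (parental) and 434, 493 and 502 CPM (transduced), and with DMSO at 315, 262 and 280 CPM (parental) and 295, 302 and 253 CPM (transduced). In thawed cells they were at 562, 572 and 523 CPM (parental) and 471, 489 and 504 CPM (transduced) without DMSO, and at 320, 303 and 370 CPM (parental) and 316, 287 and 314 CPM (transduced) with it. No library with DMSO reached any library without it. KRT18 fell with DMSO by 0.77 ± 0.10 in fresh (edgeR adjusted p = 4.21e-09) and by 0.71 ± 0.10 in thawed cells (edgeR adjusted p = 2.16e-08), both log2 with SE. In thawed cells it was the 1 of 5 keratins called (KRT6A left out), where 2.42% of all genes were called higher and 5.35% lower. KRT8 and KRT19 were at -0.31 and -0.275 there (edgeR adjusted p = 0.0776 and 0.171), and KRT19 at -0.37 in fresh cells (edgeR adjusted p = 0.0992), all log2 and not called. Both were called in each cell state with only the compared libraries. At an unadjusted p under 0.05 were 4 of 6 keratins in fresh and 3 of 5 in thawed cells, beside 1703 and 2447 of all 12532 genes. The DMSO effect differed between thawed and fresh cells in 0 of 5 keratins by edgeR or DESeq2, with 0 at an unadjusted p under 0.05, where 0.12% of all genes were called, and for KRT18 this difference was 0.06 ± 0.14 SE (edgeR adjusted p = 0.993).

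The low level of KRT18 did not last. At day 37 with DMSO its mean was 456 ± 50.8 CPM in fresh and 502 ± 73.2 CPM in thawed cells, and at day 44 it was 448 ± 51.5 and 435 ± 25.3 CPM (SD, n = 6 each). From day 32 to day 44 with DMSO it rose by 0.65 ± 0.10 in fresh (edgeR adjusted p = 1.64e-07) and by 0.45 ± 0.10 in thawed cells (edgeR adjusted p = 0.000395), on the log2 scale with SE. In fresh cells 2 of 6 keratins, KRT18 and KRT19, were called higher, against 6.53% of all genes higher and 4.95% lower. In thawed cells KRT18 was the 1 of 5 keratins called (KRT6A left out), against 5.68% higher and 3.91% lower.

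**Figure D3:**
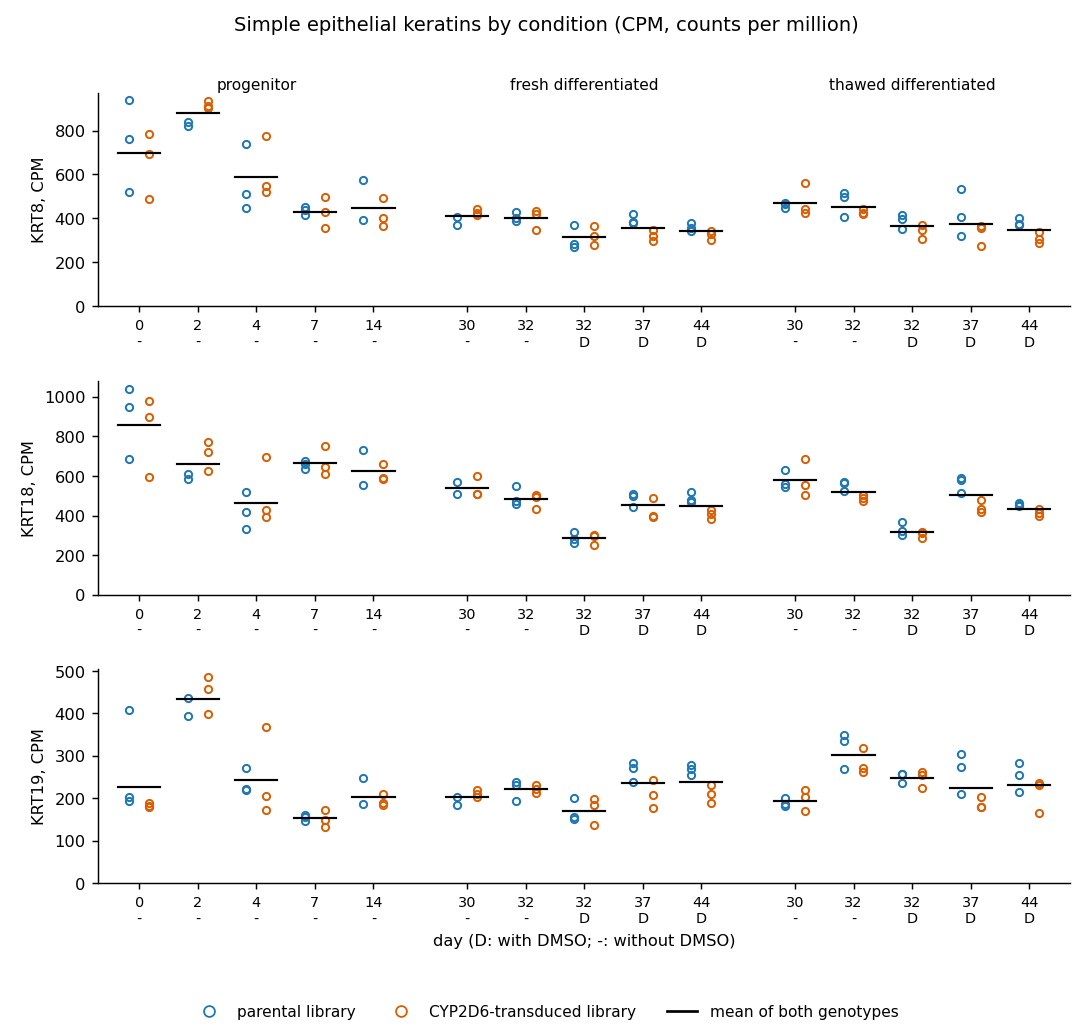
KRT8, KRT18 and KRT19 levels (CPM, linear axes from 0) in 87 libraries by day and DMSO, circles coloured by genotype and bars the mean of both genotypes. KRT8 and KRT19 peak at progenitor day 2, whereas KRT18 is lowest at day 32 with DMSO, at 285 CPM in fresh and 318 CPM in thawed cells.

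Because the pair assembles from both chains, the ratio of KRT8 to KRT18 counts within a library was also taken, after the levels had been seen. It does not depend on scaling between libraries and is not a ratio of molecules. The spans of the 2 genes overlap and the handling of reads there is not given in the sources used here, so how reads were split between them was not tested. In progenitors its mean was 0.810 ± 0.0512 (SD, n = 6) at day 0. It stood at 1.34 ± 0.106 (n = 5) on day 2 and 1.28 ± 0.106 (n = 6) on day 4, and was 0.649 ± 0.0412 (n = 6) by day 7. At day 32 it was 0.835 ± 0.0881 without and 1.104 ± 0.077 with DMSO in fresh cells, and 0.866 ± 0.0476 and 1.15 ± 0.12 in thawed cells (SD, n = 6 each). In the remaining conditions the mean lay between 0.709 and 0.810. The libraries did not overlap between days 0 and 2, between days 4 and 7, or between DMSO and no DMSO at day 32 in either cell state. Fresh day 32 without DMSO and day 30 overlapped, at 0.831 and 0.765 (geometric means). Since these comparisons were picked from their values, no test is given.

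**Figure D4:**
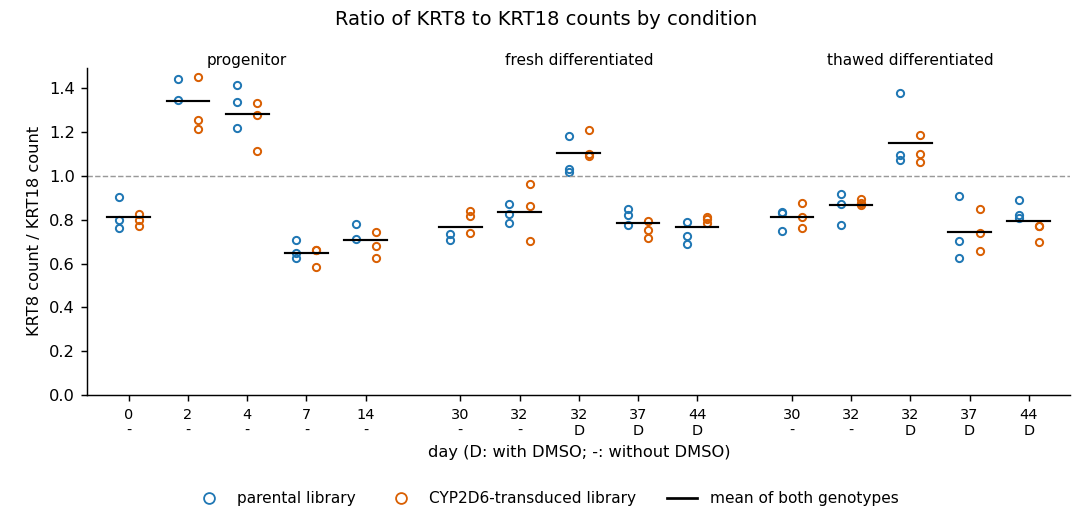
Ratio of the KRT8 count to the KRT18 count in each library (linear axis from 0, dashed line at equal counts) by day and DMSO, circles coloured by genotype and bars the mean of both genotypes. The ratio is above 1 in every library of progenitor days 2 and 4 and of day 32 with DMSO, and below 1 in every other library.

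KRT19, the type I keratin of bile ducts and progenitors, was also highest at progenitor day 2, at 436 and 393 CPM in the parental and 457, 486 and 399 CPM in the transduced libraries. At day 0 it was at 408, 193 and 204 CPM (parental) and 182, 188 and 180 CPM (transduced), so that 1 parental library, replicate a, overlapped day 2. KRT19 rose by 0.95 ± 0.13 from day 0 to day 2 (edgeR adjusted p = 1.01e-09) and fell by 1.06 ± 0.14 from day 2 to day 14 (edgeR adjusted p = 1.3e-10), log2 with SE. In the first of these progenitor comparisons 3 of 6 keratins were called higher (KRT6A, KRT8 and KRT19) and 1 lower (KRT18), against 13.8% of all genes higher and 16.6% lower. In the second 3 of 6 were called lower (KRT6A, KRT8 and KRT19) and none higher, against 19.5% higher and 16.7% lower. The median log2 change of the 6 was 0.48 and then -1.01, beside -0.08 and 0.09 over all genes.

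Between day 14 of the progenitors and fresh day 30, 0 of 6 keratins were called by edgeR or DESeq2, with 0 at an unadjusted p under 0.05, against 10.7% of all genes higher and 11.9% lower. Leaving out a replicate letter added 1 call: KRT6A without a (log2 change -2.57, edgeR adjusted p = 0.0265) and KRT18 without b (-0.40, edgeR adjusted p = 0.0281). KRT19 rose in fresh cells from day 32 to day 44 with DMSO by 0.47 ± 0.12 on the log2 scale (edgeR adjusted p = 0.004), a call lost without replicate c (edgeR adjusted p = 0.196). Its libraries went from 200, 157 and 150 CPM (parental) and 183, 198 and 138 CPM (transduced) to 255, 278 and 269 CPM and 232, 190 and 211 CPM, with overlap among the transduced ones.

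KRT19 was the keratin that differed between thawed and fresh cells at day 32 without DMSO. Thawed libraries were at 350, 334 and 270 CPM (parental) and 270, 263 and 319 CPM (transduced), and fresh ones at 238, 231 and 194 CPM (parental) and 211, 221 and 230 CPM (transduced), without overlap. The log2 difference was 0.45 ± 0.12 SE (edgeR adjusted p = 0.0305). It was the 1 of 5 keratins called (KRT6A left out), against 1.32% of all genes higher and 0.846% lower. The call was lost when any 1 replicate letter was left out, with edgeR adjusted p from 0.0669 to 0.252 and log2 differences from 0.44 to 0.45. At day 30, 0 of 5 keratins differed between thawed and fresh cells, against 9.54% of all genes higher and 6.02% lower, and at day 44 with DMSO 0 of 6, against 0.0718% and 0.112%. In both, 0 keratins were at an unadjusted p under 0.05 and 0 were called by DESeq2.

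As a description without a test, the log2 differences of thawed day 32 without DMSO against thawed day 30 were 0.63 for KRT19, 0.37 for KRT7, 0.28 for KRT17, -0.06 for KRT8 and -0.16 for KRT18. The KRT19 libraries at day 30, from 170 to 220 CPM, lay below all 6 at day 32. With DMSO the same differences were 0.36 for KRT19, -0.37 for KRT8 and -0.87 for KRT18.

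KRT7, the type II keratin of bile duct cells, was counted 399 times in all and passed the test in no comparison. It was at 2.84 and 4.27 CPM (parental) and 7.61, 4.37 and 6.54 CPM (transduced) at progenitor day 2, its highest condition with a mean of 5.12 CPM. Its lowest means were 0.583 CPM at fresh and 0.509 CPM at thawed day 37. At day 32 without DMSO the thawed parental libraries were at 5.804, 3.67 and 3.71 CPM and the transduced at 0.545, 3.19 and 0 CPM, a log2 difference of -1.73 ± 0.78 SE (edgeR adjusted p = 0.719).

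**Figure D5:**
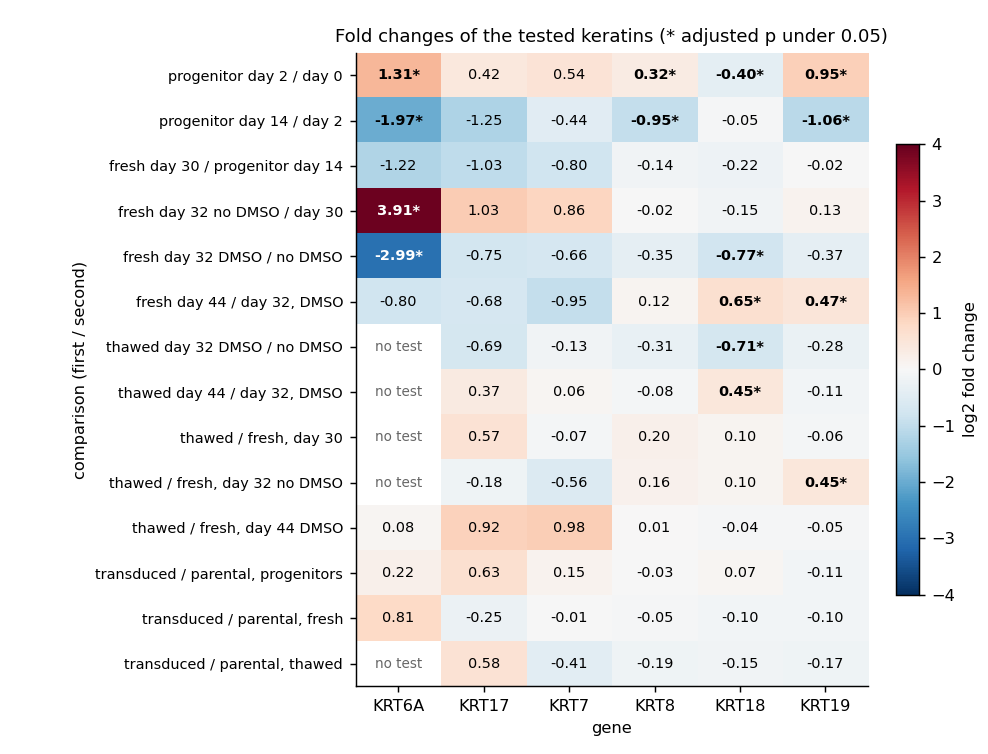
Log2 fold change of the 6 tested keratins (columns) in 14 comparisons (rows, first condition over second), coloured from -4 (blue) to 4 (red); asterisks mark an edgeR adjusted p under 0.05 and "no test" the KRT6A contrasts that rest on the thawed libraries that chose it. Among the tested cells KRT6A holds the 2 largest values in size, 3.91 and -2.99, and KRT7 and KRT17 have no asterisk.

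KRT81, a type II hair keratin, had 24 of its 36 counts at progenitor day 2. Its libraries there were at 0 and 2.13 CPM (parental) and 2.38, 2.38 and 4.53 CPM (transduced), beside a mean of 0.0599 CPM at day 0 and 0 CPM at days 7 and 14. It had too few counts for the main test, and without the filter on low counts it was called higher at day 2 than at day 0 (edgeR adjusted p = 0.0108) and lower at day 14 than at day 2 (edgeR adjusted p = 0.00123), with fold changes that depend on groups at 0. KRT86, its near-identical copy, had 3 counts at progenitor day 2, all in 1 library.

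KRT80, a type II keratin of many epithelia, had 37 counts in 26 libraries and no condition mean above 0.623 CPM. KRT23, a type I keratin, had 28 counts in 19 libraries and no condition mean above 0.455 CPM. Neither was tested, and differences in them were not detectable at this depth.

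Of 45 other keratin genes in the table, 44 had at least 1 count, 5 were tested and 4 reached a mean of 5 CPM in some condition. KRT10, the type I keratin of upper epidermis, was the most counted of these and ran from 46.1 to 82.1 CPM between condition means. It fell by 0.50 ± 0.16 from progenitor day 0 to day 2 (edgeR adjusted p = 0.0121) and was higher in transduced than parental fresh cells by 0.34 ± 0.10 (edgeR adjusted p = 0.0254), log2 with SE. KRT4, a type II keratin of wet stratified epithelia, peaked at 28.8 CPM at progenitor day 4 and fell by 1.30 ± 0.35 from day 2 to day 14 (edgeR adjusted p = 0.00137) and then fell by 2.55 to fresh day 30 (edgeR adjusted p = 8.37e-05). KRT74 rose by 1.58 ± 0.57 from progenitor day 0 to day 2 (edgeR adjusted p = 0.0245). KRT222, an atypical keratin-like gene, reached 8.11 CPM at thawed day 30 and was called in none of the comparisons.

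Genes that act with keratins or on them were followed as lists, which were also drawn up with earlier results known. At fresh day 32 without DMSO against day 30, where KRT6A rose, 0 of 15 tested genes of the EGF receptor ligand and AP-1 list rose and 11 fell, with a median log2 change of -1.93 beside 0.01 over all genes, of which 9.53% rose and 7.81% fell. KLF6 (-3.10), FOS (-5.59, edgeR adjusted p = 6.3e-17), MYC (-2.35) and ATF3 (-3.86) had the smallest p of the list, and encode transcription factors that respond early to growth signals and stress. From progenitor day 0 to day 2, where KRT6A rose too, 10 of the 15 fell and 0 rose, with a median of -2.30 beside -0.08 over all genes, of which 13.8% rose and 16.6% fell. The part of these genes in the KRT6A changes was not tested.

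Of 15 genes whose products bind keratins or act in their turnover, 6 rose and 1 fell from progenitor day 0 to day 2, and 0 rose and 6 fell from day 2 to day 14, beside 13.8% and 16.6% of all genes in the first comparison and 19.5% and 16.7% in the second. HSPB1, a small heat shock protein that binds keratin filaments, rose by 0.97 and then fell by 1.39, and SFN, an epithelial 14-3-3 protein, rose by 1.46 and then fell by 2.52 (all log2). At fresh day 32 without DMSO against day 30, 2 of the 15 rose, HSPB1 by 0.58 and HSPA8 by 0.33, and SQSTM1 fell by 0.41. These counts are near the shares of all genes there, 9.53% higher and 7.81% lower. Of 5 tested genes for other intermediate filaments, 3 rose from progenitor day 0 to day 2 (LMNA by 0.84, NES by 1.18 and LMNB2 by 1.29), and the same 3 fell to day 14. At fresh day 32 without DMSO against day 30, 1 of these 5 was called higher and 0 lower, with a median log2 change of 0.77 beside 0.01 over all genes.

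Of 11 tested desmosome and plakin genes, whose products anchor keratins at the membrane, 0 rose and 2 fell at fresh day 32 without DMSO against day 30, PPL by 0.97 and DSP by 0.53. Of all genes, 9.53% rose and 7.81% fell in that comparison. At day 30, 6 of the 11 were lower in thawed than in fresh cells and 0 higher, beside 6.02% and 9.54% of all genes, with DSP at -1.07, DST at -1.07, DSG2 at -1.001 and PPL at -0.80 (log2). Of 7 tested epithelial transcription and splicing factors, EHF rose by 1.18 and ELF3 fell by 2.08 at fresh day 32 without DMSO against day 30. The shares of all genes in that comparison were again 9.53% higher and 7.81% lower.

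Markers of other cells were followed beside KRT6A, and their part in its change was not tested. At fresh day 32 without DMSO against day 30, 9.53% of all genes rose and 7.81% fell. Of 8 tested keratinocyte and squamous markers, 1 rose at fresh day 32 without DMSO against day 30, TRIM29 by 1.94 on the log2 scale (edgeR adjusted p = 0.00219), and 0 fell. The summed level of that list went from between 57.5 and 90.9 CPM to between 84.1 and 105 CPM in fresh cells and from between 88.6 and 114 to between 104 and 120 CPM in thawed cells. Of its 30 genes, 19 and 22 had a count in these fresh conditions and 20 and 22 in the thawed ones. KRT13, IVL, SPRR2A and CALML5 averaged 0 CPM in all of them. Among the others, LY6D went from 0.551 to 2.30 CPM and TP63 from 0.992 to 1.92 CPM in fresh cells. KRT5 went from 2.288 to 1.492 CPM and DSG3 from 6.722 to 6.132 CPM there. In thawed cells CASP14 went from 0 to 1.34 CPM and TRIM29 from 3.58 to 8.45 CPM. KRT15 went from 1.243 to 0.4039 CPM and DSG1 from 0.7961 to 0.2484 CPM there. These markers thus moved both ways, and all values are given without a test here. Of 9 tested mesenchymal and stellate markers, 2 rose, DCN by 1.60 and LUM by 0.99 on the log2 scale, and 0 fell. The summed level of that list of 14 genes went from between 89.2 and 96.5 CPM to between 109 and 151 CPM in fresh cells and from between 66.9 and 104 to between 121 and 168 CPM in thawed cells, without overlap in either. Of 21 hepatocyte markers, 14 fell and 0 rose at fresh day 32 without DMSO against day 30. Of 8 biliary and progenitor markers, 2 rose (CLDN7 and CD24) and 2 fell (SOX4 and SOX9).

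Across the 30 groups, the genes whose log2 mean level followed KRT6A most closely, among 5438 genes reaching 20 CPM in some condition, were AGR2 (Pearson r = 0.86), FKBP11 (0.80), SLC44A3-AS1 (0.79), CPSF3 (0.78) and LINC00460 (0.78). The groups share conditions, so these values are descriptive. AGR2, a secretory-pathway protein of mucous epithelia, averaged 2.52 CPM at fresh day 30, 13.6 CPM at day 32 without DMSO and 6.21 CPM with it, and 1.82, 26.2 and 5.54 CPM in thawed cells. The closest gene was PLAUR for KRT7 (0.70), TPM1 for KRT8 (0.93), CDKN2A for KRT17 (0.86), IL18 for KRT18 (0.83) and EXOSC7 for KRT19 (0.78). For the sparse members it was COPRS for KRT16 (0.53), SND1 for KRT23 (0.53), BCS1L for KRT80 (0.65) and TUBA4A for KRT81 (0.86), which rest on few counts. Among the tested members themselves r was highest for KRT8 with KRT17 (0.72) and KRT18 (0.70), and KRT6A had r = 0.59 with KRT17, 0.53 with KRT7, 0.40 with KRT8, 0.37 with KRT19 and 0.15 with KRT18.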

How the data were processed

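BRB-seq libraries were made from total RNA by template-switching reverse transcription, amplification and tagmentation, per the labels' protocols. The deposited table holds raw counts per gene, and no normalization by the authors is recorded. Per the submitters' processing notes, BWA 0.7.4.4 and the builds mm10 and hg38 were used, in roles that are not stated. The counting rule, use of molecular identifiers, strand and annotation are not given in the sources used here. Counts were scaled by TMM and tested with edgeR 4.0.16 (R 4.3.3, limma 3.58.1), a robust quasi-likelihood fit over 30 groups and 87 libraries with 57 residual degrees of freedom, after edgeR's default filter on low counts left 12532 genes. The 3 libraries left out had totals under 0.25 of the median. Library totals from 723391 to 3882866 limit the precision for genes of few counts. CPM are TMM-scaled. Scripts were tested on simulated data. DESeq2 1.42.0, other scaling, no filter, all 90 libraries, only the compared libraries, a replicate block and leaving out each replicate letter were tried as alternatives. The members and gene lists were chosen with earlier results of these data known. Named genes are all 10 members, tested other keratins reaching 5 CPM, the copies KRT6B, KRT6C and KRT86, up to 4 called genes of smallest p per list, and each member's closest gene by correlation (5 for KRT6A), over 30 groups. KRT5, KRT13, KRT15, IVL, SPRR2A, CALML5, LY6D, TP63, DSG1, DSG3, CASP14 and EPCAM were named after their values were seen. The genotype comparison at day 32 without DMSO and the KRT8 to KRT18 ratio were added after values had been seen. KRT6A was left untested in the thawed genotype comparisons too, although their tests had been planned or added, because they use the libraries that chose it.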

Additional observations from a re-analysis of the deposited data

How the results depend on the processing

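Of all member calls, 10 were lost and 18 gained under some alternative. For 32 fold changes (each call, KRT6A in comparisons without its test or between genotypes, and KRT18 and KRT19 in thawed cells from day 30), 279 values kept direction and side of the threshold or, untested, moved by no more than their SE, 10 lost the threshold, 1 gained it, 8 untested values moved further and 3 turned: KRT6A from day 32 to 44 in thawed cells without replicate c (leave-one-out range -1.93 to 0.29), KRT6A between genotypes in thawed cells without replicate b (-0.055 to 0.72) and the KRT6A DMSO effect, thawed minus fresh, without replicate b (-1.25 to 0.23). Low counts limit KRT6A outside day 32 without DMSO, and KRT16, KRT23, KRT80 and KRT81 throughout. The cause of the changes below was not tested.

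With only the compared libraries, keratins called were 4 for DMSO in fresh cells (also 4 with no filter), 3 for DMSO in thawed cells, 2 between genotypes in thawed cells and 1 between genotypes at fresh day 32 without DMSO. The last is KRT6A, in a comparison picked from its values. All genes called were then 548 for thawed against fresh at day 32 without DMSO, 119 at day 44, 53 between genotypes in progenitors, 14 and 4 for the genotype difference of the change in thawed and fresh cells, 31 for the difference of the DMSO effect, and 16 and 14 between genotypes at day 32 without DMSO in fresh and thawed cells. With no filter these were 41 at day 44, 6 and 8 for the genotype difference of the change in thawed and fresh cells, and 2 and 1 between genotypes at day 32 without DMSO. With all 90 libraries they were 110 at day 32 without DMSO, 13 at day 44, 1 for the fresh genotype difference of the change (also 1 with RLE scaling and 1 with DESeq2) and 2 for the DMSO difference. Without parental progenitor day 14 replicate a, an alternative chosen after seeing the data, 118 genes were called between genotypes in progenitors.

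Leaving out each replicate letter in turn, keratins called ranged from 2 to 3 for progenitor day 2 against day 0, 0 to 1 for fresh day 30 against progenitor day 14, 1 to 2 for fresh day 44 against 32, and were 0 for thawed against fresh at day 32 without DMSO. All genes called ranged from 2377 to 3211 for progenitor day 2 against day 0, 1523 to 2476 for fresh day 30 against progenitor day 14, 901 to 1738 for fresh day 32 without DMSO against day 30, 153 to 202 and 445 to 638 for DMSO in fresh and thawed cells, 919 to 999 and 770 to 831 for day 44 against 32 in fresh and thawed cells, 554 to 1520, 15 to 129 and 7 to 10 for thawed against fresh at day 30, day 32 without DMSO and day 44, 71 to 169, 154 to 267 and 141 to 186 between genotypes in progenitors, fresh and thawed cells, 0 to 8 and 0 to 1 for the genotype difference of the change in fresh and thawed cells, 3 to 11 for the DMSO difference, and 0 to 1 in both comparisons of genotypes at day 32 without DMSO.

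Over all groups, deviations from group means had a median correlation of -0.00104 between libraries of the same letter and -0.00043 between others. Within single comparisons the median for a letter ran from -0.1377 (letter a, genotypes at fresh day 32 without DMSO) to 0.0351 (letter a, DMSO in thawed cells). The labels do not say what the letters stand for, and such medians cannot exclude pairing. With a replicate block the number of keratins called was the same in each comparison.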
